A study of Homo sapiens with 18 samples.

Results

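The transcripts described here are those of 10 regulators of the G1 phase of the cell cycle and of the step from G1 into S phase, taken as a named list (CCND1, CCND3, CDK4, CDK6, CDKN2C, CDKN1B, CCNE1, CCNE2, CDK2 and RB1) out of 58884 genes counted, and all 10 were found. They were measured by poly(A) RNA sequencing in T47D, a human breast cancer line with a luminal, estrogen receptor-positive phenotype. The 18 libraries formed 6 groups of 3: cells labelled WT (line T47D AAV) and cells labelled PARP1 KO (line T47D JL), each kept for 48 hours with niraparib or olaparib, both inhibitors of the DNA repair enzymes PARP1 and PARP2, at 10 μmol/L, or with the vehicle DMSO. Whether the PARP1 KO line is a single clone is not given in the sources used here, and each genotype was 1 line, so the genotype and the line cannot be told apart. The methods describe 3 dishes per condition, but no label ties a library to a dish, so P values measure only the spread between these libraries, which may be technical.

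D-type cyclins (CCND1, CCND3) are made in response to growth signals and bind the kinases CDK4 and CDK6. These kinases begin the phosphorylation of the retinoblastoma protein RB1, which otherwise holds E2F transcription factors inactive, and the E-type cyclins (CCNE1, CCNE2), themselves E2F targets, then drive CDK2 and entry into S phase. The inhibitor p18 (CDKN2C) blocks CDK4 and CDK6, and p27 (CDKN1B) blocks mainly CDK2. In luminal breast cancer, CCND1 is a target of the estrogen receptor, and CDK4 and CDK6 are drug targets.

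Library totals ran from 28890837 to 52251288 counts, with a median of 37363326. PARP1 lay between 291 and 373 counts-per-million units (CPM, scaled to library size) in the 9 WT libraries and between 22.9 and 27.6 CPM in the 9 PARP1 KO libraries, so the genotypes were separated as labelled. All 8 luminal markers were read at 112 CPM or more in every library, ESR1 lowest, while 7 of the 10 markers of other cell types (KRT5, KRT14, DCN, PTPRC, CD3E, PECAM1 and CDH5) had at most 6 counts in any library. The exceptions were the basal marker TP63, at 1.24 to 2.54 CPM, and the fibroblast markers COL1A1, at 88.3 to 153 CPM, and COL1A2, at 0.204 to 0.852 CPM. In WT the summed luminal markers were at 12300 to 12900 CPM with DMSO, 8840 to 9760 CPM with niraparib and 9640 to 10100 CPM with olaparib, and the 3 basal markers summed to 1.36 to 1.7, 2.36 to 2.62 and 1.24 to 1.79 CPM in the same order. In PARP1 KO the luminal sum was at 13700 to 14400, 12600 to 13000 and 11600 to 12700 CPM, and the basal sum at 1.63 to 2.16, 1.48 to 1.61 and 1.27 to 1.77 CPM. The luminal sum was thus lower with each drug in both genotypes and the basal sum higher with niraparib in WT, and their part in the differences given below was not tested.

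In WT cells with DMSO, CCND1 was the most abundant of the 10 transcripts per length, at 298 ± 7.04 TPM (transcripts-per-million, which takes gene length into account; mean ± SD, n = 3). CDK4 followed at 182 ± 8.04 TPM and CDK2 at 133 ± 4.16 TPM, and the libraries of these 3 did not overlap. CDKN2C (85.9 ± 5.59 TPM) and CDKN1B (78.4 ± 0.828 TPM) came next, with ranges of 79.4 to 89.2 and 77.7 to 79.3 TPM that did not overlap but nearly touched. RB1 lay at 47.2 ± 3.26 TPM, CCND3 at 27.1 ± 0.839 TPM and CCNE2 at 23.9 ± 0.991 TPM, again without overlap. CCNE1 (5.78 ± 1.31 TPM) and CDK6 (1.07 ± 0.211 TPM) were the least abundant. The third D-type cyclin, CCND2, had a mean of 0.0199 TPM and was close to absent.

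**Figure D1:**
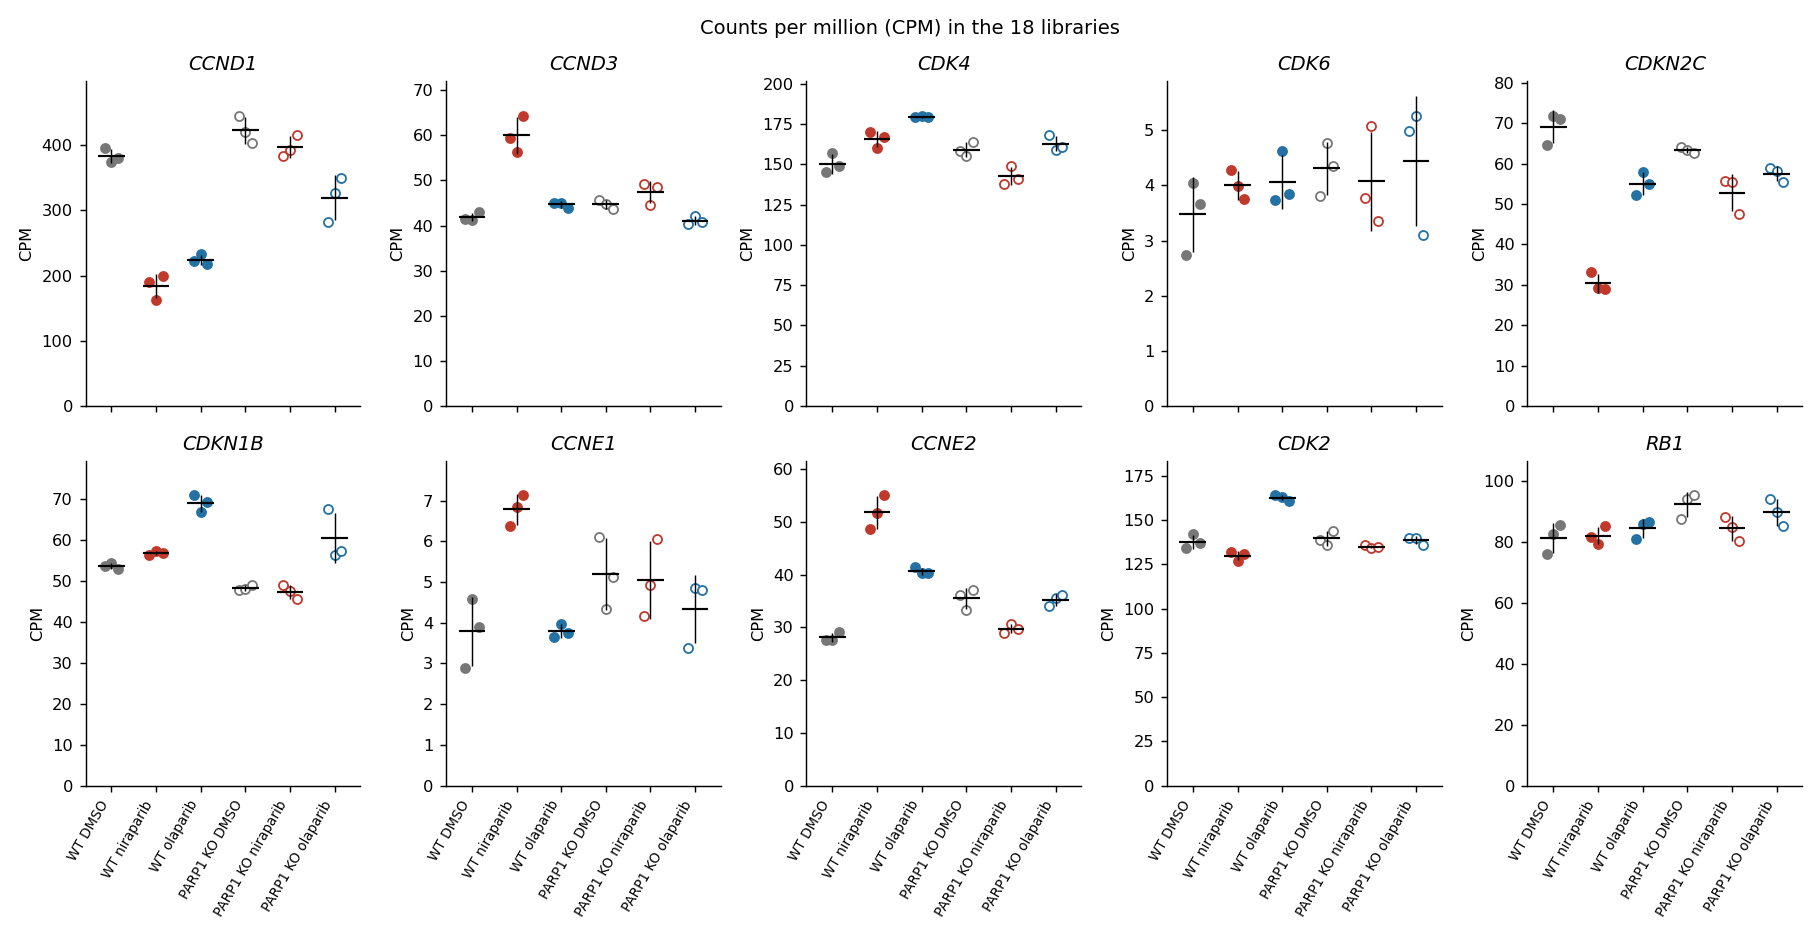
Normalized CPM (linear axis from 0) of each of the 10 genes in the 18 libraries; filled points are WT, open points PARP1 KO, grey DMSO, red niraparib and blue olaparib, with the mean (bar) and SD (line) of each group of 3. In WT, niraparib libraries lay apart from DMSO libraries for CCND1 (163 to 199 against 375 to 396 CPM) and CDKN2C (28.9 to 33.1 against 64.5 to 71.8 CPM), and RB1 overlapped.

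The drug comparisons ask how the G1 transcripts responded to each inhibitor in the lines labelled WT and PARP1 KO. With niraparib in WT cells, CCND1 and CDKN2C fell and CCNE1 and CCNE2 rose, each by more than 1.5-fold, so that 4 of the 10 genes were called (edgeR, adjusted P below 0.05 and more than 1.5-fold), beside 13.8% of the 22446 genes tested. With olaparib in WT, 1 of the 10 was called, CCND1, beside 4.04% of all genes. In PARP1 KO cells 0 of the 10 were called by edgeR with either drug, beside 0.0136% of 22037 genes with niraparib and 0.803% with olaparib, and DESeq2 also called 0. At an unadjusted P below 0.05, edgeR gave 4 of the 10 with niraparib (9.14% of all genes) and 3 with olaparib (21.1%) in PARP1 KO. At an adjusted P below 0.05 without a limit on the fold, the counts were 6 of 10 with niraparib in WT (38% of all genes), 6 with olaparib in WT (19%), 0 with niraparib in PARP1 KO (0.109%) and 2 with olaparib in PARP1 KO (8.29%). Below, a gene is said to rise or fall when its adjusted P was below 0.05. In RNA from a whole culture, a change per cell and a change in the share of cells in one phase cannot be told apart.

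**Figure D2:**
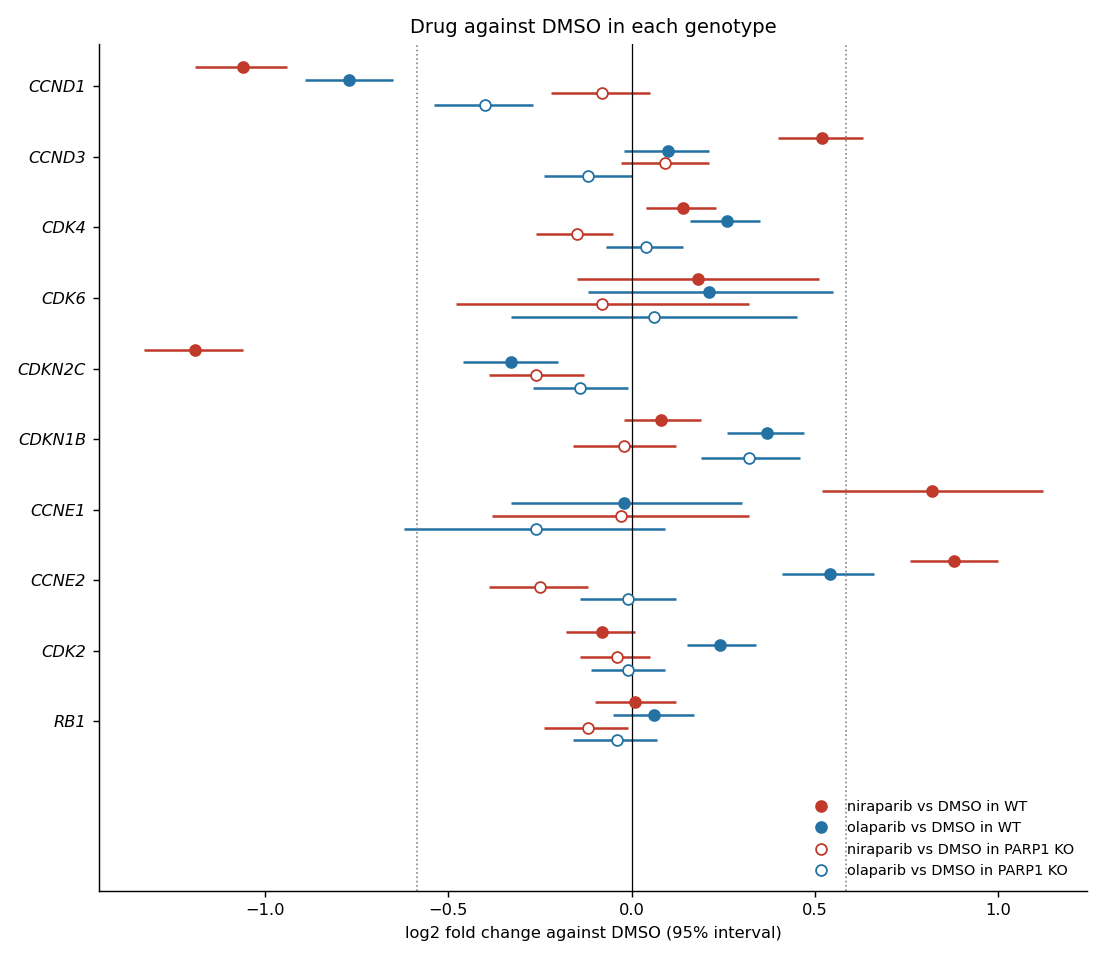
Log2 fold change against DMSO (point) with its 95% interval (line) for each gene; filled points are WT, open points PARP1 KO, red niraparib and blue olaparib, and dotted lines mark 1.5-fold. With niraparib in WT, CDKN2C (-1.19) and CCND1 (-1.06) lay left of the dotted line and CCNE2 (0.88) and CCNE1 (0.82) right of it, whereas all PARP1 KO points lay between the lines.

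Among the D-type cyclins, CCND1 (chromosome 11 from 69641087 to 69654474 of GRCh38, plus strand) was the only one of the 10 genes called with both drugs in WT. Its level was 396, 375 and 380 CPM in the 3 WT DMSO libraries, 190, 163 and 199 CPM with niraparib and 222, 233 and 218 CPM with olaparib. Every treated WT library was below every DMSO library, and the niraparib libraries were below the olaparib libraries. On the log2 scale CCND1 fell by 1.06 with niraparib (standard error, SE, 0.0599, edgeR adjusted P = 1.9e-11) and by 0.77 with olaparib (SE 0.0596, adjusted P = 2.3e-08). In PARP1 KO cells CCND1 stood at 445, 420 and 403 CPM with DMSO, at 384, 393 and 416 CPM with niraparib and at 282, 326 and 350 CPM with olaparib. Here the olaparib libraries were the low ones, and the niraparib libraries overlapped with DMSO. CCND1 fell with olaparib in PARP1 KO by 0.40 on the log2 scale (SE 0.0644, edgeR adjusted P = 9.1e-04), while the difference with niraparib was -0.08 (95% interval -0.22 to 0.05, adjusted P = 0.76).

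CCND3 (chromosome 6 from 41934933 to 42050357, minus strand), the D-type cyclin best known from lymphoid cells, went the other way. In WT it was at 41.4, 41.3 and 42.9 CPM with DMSO, 59.5, 56.2 and 64.3 CPM with niraparib and 45.1, 45.1 and 43.8 CPM with olaparib. All niraparib libraries were above all others of this genotype. CCND3 rose with niraparib by 0.52 on the log2 scale (SE 0.0559, edgeR adjusted P = 1.4e-07), which is less than 1.5-fold, and its difference with olaparib was 0.10 (95% interval -0.02 to 0.21, adjusted P = 0.27). In PARP1 KO its 9 libraries ranged from 40.3 to 49.1 CPM, and neither drug passed the test against DMSO (edgeR adjusted P = 0.69 for niraparib and 0.25 for olaparib).

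The 2 kinases that D-type cyclins bind moved little. CDK4 (chromosome 12 from 57747727 to 57756013, minus strand) was at 145, 157 and 149 CPM with DMSO in WT, at 170, 160 and 167 CPM with niraparib and at 179, 180 and 179 CPM with olaparib. The groups did not overlap, and olaparib libraries were the highest. CDK4 rose with olaparib by 0.26 on the log2 scale (SE 0.0471, edgeR adjusted P = 4.4e-04) and with niraparib by 0.14 (SE 0.047, adjusted P = 0.025). The niraparib result missed an adjusted P of 0.05 when WT niraparib replicate 1 or 3 or WT DMSO replicate 1 or 3 was left out (adjusted P = 0.063 to 0.1). In PARP1 KO, CDK4 ranged from 138 to 149 CPM with niraparib and from 155 to 164 CPM with DMSO, a log2 difference of -0.15 that did not pass the test (edgeR adjusted P = 0.31).

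CDK6 (chromosome 7 from 92604921 to 92836594, minus strand) was read from 82 to 221 counts per library, which left wide intervals. Its level ranged from 2.73 to 4.63 CPM over the 9 WT libraries and from 3.1 to 5.26 CPM over the 9 PARP1 KO libraries, and every pair of groups overlapped. With niraparib in WT the log2 difference was 0.18 (95% interval -0.15 to 0.51, edgeR adjusted P = 0.41). CDK4 made up 99.4% of the summed TPM of CDK4 and CDK6 in WT with DMSO, with niraparib and with olaparib.

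Of the inhibitors, CDKN2C (chromosome 1 from 50960745 to 50974634, plus strand), which encodes p18, showed the widest difference of the 10 genes. It is one of 2 called genes with a promoter window in the RefSeq-based table (300 bases, 250 before and 50 after a start). The window at one of its 3 listed starts, chr1:50968456-50968755 of GRCh38.p14 on the plus strand, is shown with the 6 copies of the GC box GGGCGG, read on both strands and partly overlapping, in capitals. It was picked as the window with the most copies. The window at the start of the annotated gene, chr1:50960495-50960794, held 0 copies and the third, chr1:50969995-50970294, held 1.

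CDKN2C: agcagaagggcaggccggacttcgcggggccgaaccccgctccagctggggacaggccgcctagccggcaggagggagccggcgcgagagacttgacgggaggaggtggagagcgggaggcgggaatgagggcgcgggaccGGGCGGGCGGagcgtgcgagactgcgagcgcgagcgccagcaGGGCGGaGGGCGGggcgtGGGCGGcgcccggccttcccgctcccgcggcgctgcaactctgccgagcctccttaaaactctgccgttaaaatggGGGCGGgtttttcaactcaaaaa

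CDKN2C was at 64.5, 71.8 and 71.1 CPM with DMSO in WT, at 33.1, 29.1 and 28.9 CPM with niraparib and at 52.3, 57.9 and 54.9 CPM with olaparib. The groups stood apart in this order, niraparib lowest. It fell by 1.19 on the log2 scale with niraparib (SE 0.0653, edgeR adjusted P = 4e-12) and by 0.33 with olaparib (SE 0.0636, adjusted P = 7.6e-04). In PARP1 KO its libraries were at 64, 63.3 and 62.7 CPM with DMSO, 55.6, 55.4 and 47.5 CPM with niraparib and 59, 58.1 and 55.4 CPM with olaparib. Treated libraries were again the lower ones, but neither difference passed the test, being -0.26 for niraparib (edgeR adjusted P = 0.12) and -0.14 for olaparib (adjusted P = 0.18). The niraparib difference in PARP1 KO did pass with DESeq2 (adjusted P = 0.037) and with edgeR when no filter on low counts was used (adjusted P = 0.0094), still under 1.5-fold.

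CDKN1B (chromosome 12 from 12715058 to 12722369, plus strand), which encodes p27, differed with olaparib in both genotypes. In WT it was at 53.6, 54.4 and 53 CPM with DMSO, 56.4, 57.5 and 56.8 CPM with niraparib and 71, 66.9 and 69.3 CPM with olaparib. In PARP1 KO it was at 47.8, 48 and 49.1 CPM with DMSO, 49, 47.5 and 45.7 CPM with niraparib and 67.6, 56.5 and 57.4 CPM with olaparib. The olaparib libraries were above all others within each genotype, and 1 PARP1 KO library (olaparib replicate 1) was higher than its pair of replicates. CDKN1B rose with olaparib by 0.37 on the log2 scale in WT (SE 0.0492, edgeR adjusted P = 1.5e-05) and by 0.32 in PARP1 KO (SE 0.0658, adjusted P = 0.0037). With niraparib the differences were 0.08 (95% interval -0.02 to 0.19) in WT and -0.02 (95% interval -0.16 to 0.12) in PARP1 KO, neither past the test (adjusted P = 0.2 and 0.95, edgeR).

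The E-type cyclins were higher with niraparib in WT. The promoter window of CCNE1 (chromosome 19 from 29811991 to 29824312, plus strand) lies at chr19:29811741-29812040 of GRCh38.p14 on the plus strand. Its 7 GC boxes (GGGCGG on either strand) are in capitals. It can be set beside the window shown for CDKN2C, the other called gene with a listed window, which moved in the opposite direction.

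CCNE1: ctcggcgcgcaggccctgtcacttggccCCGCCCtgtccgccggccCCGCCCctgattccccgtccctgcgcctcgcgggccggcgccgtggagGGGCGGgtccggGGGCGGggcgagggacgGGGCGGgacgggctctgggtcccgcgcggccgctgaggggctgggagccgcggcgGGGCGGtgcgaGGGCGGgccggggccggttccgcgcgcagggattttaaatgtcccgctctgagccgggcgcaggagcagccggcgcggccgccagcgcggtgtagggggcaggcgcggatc

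A GC box was found in 45% of the 35116 promoter windows of this length, and 6 or more in 2.86%. Of the 12 windows listed for 7 of the 10 genes, 8 held a GC box. The windows of CCND3, which was not called in any comparison, held 5, 4 and 0 copies. The E2F octamers TTTCGCGC, TTTGGCGC, TTTCCCGC and TTTGCCGC, searched on both strands, were found in 3.31% of all windows and in 0 of the 12 windows listed for 7 of the 10 genes. These matches describe the letters of the windows and do not locate a binding site. No window was listed for CCND1, CCNE2 or CDK2. The only RB1 window, chr13:48476200-48476499, lies inside the gene and far from its annotated start, so the bases before that start were not searched. All windows listed for CCND3, CDKN1B and CDK4 also lie inside the annotated bounds of those genes, so the bases before their annotated starts were not searched either.

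CCNE1 was at 2.9, 4.59 and 3.89 CPM with DMSO in WT, 6.37, 6.85 and 7.13 CPM with niraparib and 3.65, 3.98 and 3.75 CPM with olaparib. The niraparib libraries were above all others, and the olaparib libraries lay within the DMSO range. It rose by 0.82 on the log2 scale with niraparib (SE 0.145, edgeR adjusted P = 8.6e-05), and with olaparib the difference was -0.02 (95% interval -0.33 to 0.30, adjusted P = 0.96). In PARP1 KO the 9 libraries ranged from 3.38 to 6.11 CPM and the 3 groups overlapped, with log2 differences of -0.03 (95% interval -0.38 to 0.32) for niraparib and -0.26 (95% interval -0.62 to 0.09) for olaparib.

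CCNE2 (chromosome 8 from 94879770 to 94896678, minus strand), the more abundant E-type cyclin here, was at 27.6, 27.6 and 29.1 CPM with DMSO in WT, 48.6, 51.7 and 55 CPM with niraparib and 41.4, 40.3 and 40.2 CPM with olaparib. The 3 groups stood apart, niraparib highest. It rose by 0.88 on the log2 scale with niraparib (SE 0.0575, edgeR adjusted P = 6.3e-11) and by 0.54 with olaparib (SE 0.0581, adjusted P = 1e-06), the latter just under 1.5-fold. In PARP1 KO it was at 36.1, 33.3 and 37.1 CPM with DMSO, 28.9, 30.6 and 29.6 CPM with niraparib and 34, 35.5 and 36.2 CPM with olaparib. There the niraparib libraries were the low ones, the opposite side from WT, with a log2 difference of -0.25 that missed the test (95% interval -0.39 to -0.12, edgeR adjusted P = 0.14) but passed when no filter on low counts was used (adjusted P = 0.048).

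CDK2 (chromosome 12 from 55966781 to 55972789, plus strand), the kinase partner of the E-type cyclins, did not follow them. In WT it was at 134, 142 and 137 CPM with DMSO, 132, 127 and 131 CPM with niraparib and 164, 163 and 161 CPM with olaparib. Only olaparib in WT stood well apart among the 6 groups. CDK2 rose with olaparib by 0.24 on the log2 scale (SE 0.0447, edgeR adjusted P = 4.7e-04), and its difference with niraparib was -0.08 (95% interval -0.18 to 0.01, adjusted P = 0.16). In PARP1 KO all 9 libraries lay between 134 and 144 CPM.

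RB1 (chromosome 13 from 48303726 to 48599436, plus strand), the pocket protein that these kinases act on, overlapped between each drug and DMSO in both genotypes. It ranged from 75.9 to 86.5 CPM over the WT libraries and from 80.1 to 95.2 CPM over the PARP1 KO libraries. Its log2 difference in WT was 0.01 with niraparib (95% interval -0.10 to 0.12, edgeR adjusted P = 0.9) and 0.06 with olaparib (95% interval -0.05 to 0.17, adjusted P = 0.53), so these intervals leave out changes of 1.5-fold.

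The cyclins were also set against each other per length. CCND1 made up 91.7% ± 0.303 (SD, n = 3) of the summed TPM of the 3 D-type cyclins in WT with DMSO, 78.6% ± 0.833 with niraparib and 85.8% ± 0.306 with olaparib. In PARP1 KO its share was 91.9% ± 0.195, 91% ± 0.514 and 90.3% ± 0.883 in the same order, and each treated WT group lay below all PARP1 KO libraries. CCNE1 made up 19.3% ± 3.56 of E-type cyclin TPM in WT with DMSO and 19% ± 0.159 with niraparib, a difference within the spread between replicates, and 14.3% ± 0.689 with olaparib.

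Per 100 TPM of D-type cyclins, WT cells held 9.16 ± 0.694 TPM of E-type cyclins with DMSO, 30.2 ± 3.08 with niraparib and 19.9 ± 0.578 with olaparib (SD, n = 3 each). The 3 groups stood apart. In PARP1 KO the values were 10.7 ± 0.842 with DMSO, 9.73 ± 0.336 with niraparib and 13.4 ± 0.562 with olaparib, where the olaparib libraries were the high ones and the niraparib libraries overlapped with DMSO. This measure was chosen after the values of the genes were seen and is given without a test.

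**Figure D3:**
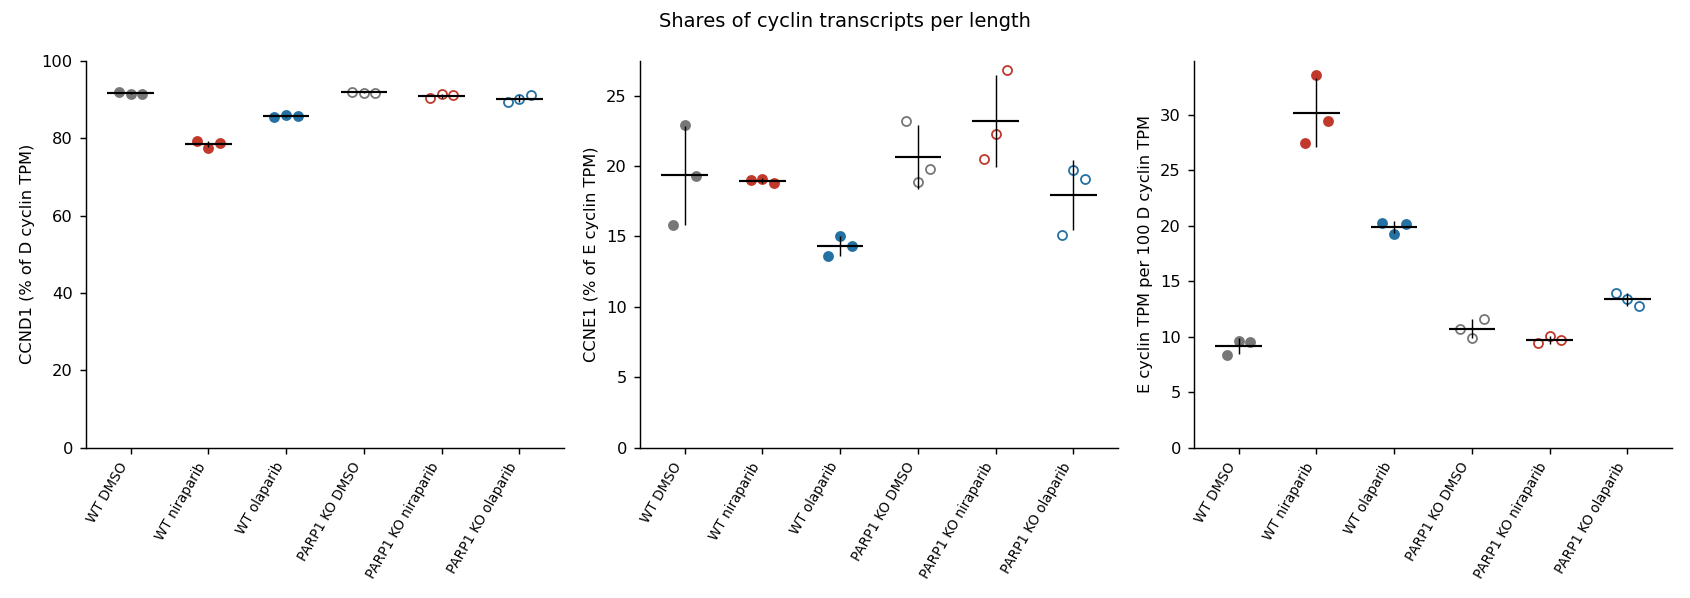
Shares from TPM in each library (points; filled WT, open PARP1 KO), with mean and SD of 3: CCND1 as a percentage of D-type cyclins, CCNE1 as a percentage of E-type cyclins, and E-type per 100 D-type cyclin TPM, all on axes from 0. In WT the E-type to D-type value was highest with niraparib (27.5 to 33.6) and lowest with DMSO (8.36 to 9.6).

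Because both drugs were used at the same dose and time, they were compared directly. In WT, 2 of the 10 genes were called between niraparib and olaparib, beside 8.95% of all genes: CCNE1 was higher with niraparib by 0.83 on the log2 scale (SE 0.146, edgeR adjusted P = 1.1e-04) and CDKN2C lower, at -0.86 (SE 0.0656, adjusted P = 1.6e-09). In all, 7 genes had an adjusted P below 0.05 (32.2% of all genes). CCND3 (0.42) and CCNE2 (0.35) were also higher with niraparib, and CCND1 (-0.29), CDK2 (-0.33) and CDKN1B (-0.28) lower, all under 1.5-fold. CDK4 differed by -0.12 (95% interval -0.22 to -0.02, edgeR adjusted P = 0.056), which passed in 3 of 12 other fits (adjusted P = 0.034 to 0.041).

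In PARP1 KO the same comparison called 0 of the 10 genes by edgeR and 0 by DESeq2, beside 1.07% of all genes, and 5 genes had an adjusted P below 0.05 (10% of all genes), as many as at an unadjusted P below 0.05 (22.1%). CCND1 was higher with niraparib than with olaparib there, by 0.32 on the log2 scale (SE 0.0644, edgeR adjusted P = 0.0034), the reverse of its order in WT. CDKN1B was lower with niraparib, at -0.35 (SE 0.0659, edgeR adjusted P = 0.0017). The differences of CCND3 (0.21), CCNE2 (-0.24) and CDK4 (-0.19) had adjusted P values of 0.019 to 0.023 (edgeR) and each missed 0.05 when 1 of some libraries was left out (adjusted P up to 0.1).

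Without drug, the genotypes differed little in these genes. Between PARP1 KO and WT with DMSO, 0 of the 10 were called by edgeR or DESeq2, beside 0.146% of 24675 genes, with 5 at an unadjusted P below 0.05 (13.6% of all genes, edgeR). At an adjusted P below 0.05 (1.39% of all genes) only CCNE2 differed. It was higher in PARP1 KO, with 33.3 to 37.1 CPM against 27.6 to 29.1 CPM and a log2 difference of 0.34 (SE 0.061, edgeR adjusted P = 0.0021). RB1 differed by 0.18 (95% interval 0.07 to 0.29) without passing the test (edgeR adjusted P = 0.095), and DESeq2 gave an adjusted P of 0.041.

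Whether the response to a drug differed between genotypes was tested as an interaction over all 18 libraries. For niraparib, 4 of the 10 genes were called, beside 8.88% of all genes, and they were the 4 called in WT. The response in PARP1 KO minus that in WT was 0.98 for CCND1 (SE 0.0978, edgeR adjusted P = 6.6e-08) and 0.93 for CDKN2C (SE 0.0898, adjusted P = 4.7e-10), the genes lowered in WT. It was -1.14 for CCNE2 (SE 0.0857, edgeR adjusted P = 1.1e-12) and -0.85 for CCNE1 (SE 0.225, adjusted P = 0.0044), the genes raised in WT. CCND3 (-0.43) and CDK4 (-0.29) also passed the adjusted P, under 1.5-fold, which made 6 genes (22.9% of all genes).

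For olaparib, the interaction called 0 of the 10 genes by edgeR and by DESeq2, beside 0.657% of all genes, with 6 at an unadjusted P below 0.05 (15.7%, edgeR) and 3 at an adjusted P below 0.05 (2.27%). CCNE2 came closest, at -0.54 (SE 0.0857, edgeR adjusted P = 2.1e-04), and passed 1.5-fold when PARP1 KO DMSO replicate 2 was left out (-0.59). CDK2 (-0.25, edgeR adjusted P = 0.024) and CCND1 (0.37, adjusted P = 0.047) had smaller differences that missed 0.05 in 6 and 11 of the other fits, respectively. For CDKN1B, the gene that olaparib raised in both genotypes, the interaction was -0.04 (95% interval -0.20 to 0.13, edgeR adjusted P = 0.87).

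**Figure D4:**
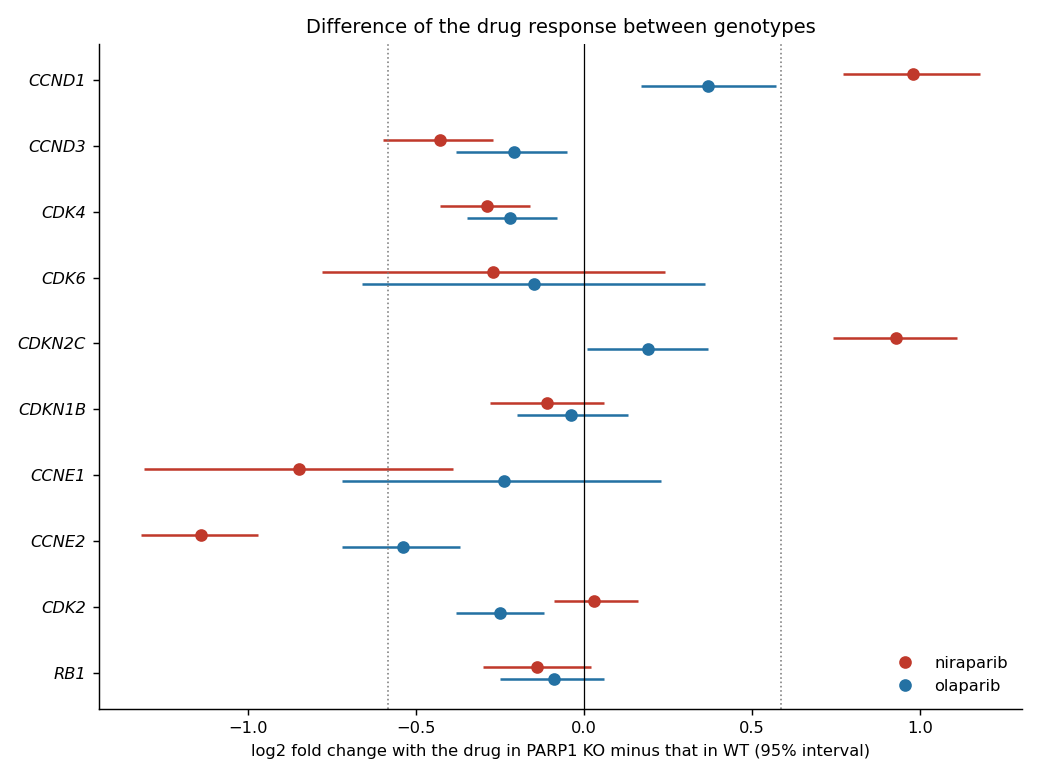
Difference of the log2 fold change with each drug between genotypes (PARP1 KO minus WT; point) with its 95% interval (line), red for niraparib and blue for olaparib; dotted lines mark 1.5-fold. For niraparib, CCND1 (0.98) and CDKN2C (0.93) lay on the right and CCNE2 (-1.14) and CCNE1 (-0.85) on the left, and all olaparib points lay inside the dotted lines.

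The rest of the pathway was read from 5 lists. Of 13 other G1 cyclin and CDK parts, 3 were called higher and 2 lower with niraparib in WT, beside 13.8% of all genes called, with a median log2 fold change of 0.26 beside -0.0247 over all genes and 0.11 over the 10 genes. CDKN1A, the CDK inhibitor p21, rose by 2.23 (edgeR adjusted P = 3.1e-12), CDC25A, a phosphatase that activates CDK2, by 0.74 and RBL1, the RB1 relative p107, by 0.70, while CDKN2D, the INK4 inhibitor p19, fell by 0.77 and RBL2, the relative p130, by 0.63. With olaparib in WT only CDKN1A of this list was called, at 1.18 (edgeR adjusted P = 4.5e-08), beside 4.04% of all genes. At an adjusted P below 0.05, 3 rose and 1 fell there (edgeR), beside 19% of all genes. CDKN2D rose with olaparib, by 0.24 in WT (edgeR adjusted P = 0.024) and by 0.42 in PARP1 KO (adjusted P = 0.023). In PARP1 KO 0 of this list were called with either drug, beside 0.0136% of all genes with niraparib and 0.803% with olaparib. None of the 11 genes for turnover of G1 regulators, such as the p27 ubiquitin ligase subunit SKP2, was called with niraparib in WT, beside 13.8% of all genes, and 3 rose and 3 fell at an adjusted P below 0.05 (edgeR), beside 38% of all genes. With olaparib in WT 0 of the 11 were called, beside 4.04% of all genes. At an adjusted P below 0.05, beside 19% of all genes, 0 fell and 4 rose, which were FBXO31 (0.42), CKS1B (0.35), AMBRA1 (0.28) and SKP2 (0.20, edgeR adjusted P = 0.013).

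Of 25 E2F target genes of S phase entry, 8 were called higher and 1 lower with niraparib in WT, beside 13.8% of all genes called, and 20 rose and 1 fell at an adjusted P below 0.05, beside 38% of all genes (edgeR; median 0.47). E2F2 (1.10), MCM10 (1.02) and POLA1 (0.94) had the largest rises, and E2F1, the factor that RB1 is best known to bind, rose by 0.74. CCNA2, the cyclin of S and G2 phase, was the exception, at -1.77 (edgeR adjusted P = 2.8e-16). With olaparib in WT 3 were called higher and 0 lower, beside 4.04% of all genes, and 14 rose and 1 fell at an adjusted P below 0.05, beside 19% (edgeR; median 0.20). In PARP1 KO 0 were called with niraparib, beside 0.0136% of all genes, and 0 with olaparib, beside 0.803%. At an adjusted P below 0.05 there, 0 rose and 1 fell with niraparib, beside 0.109% of all genes (edgeR; median -0.11), and 1 rose and 10 fell with olaparib, beside 8.29% (median -0.16). Of the 10 that fell, MCM2 (0.24) and MCM4 (0.15) rose with olaparib in WT and the other 8 did not pass there, while CDT1, which rose, did so in both genotypes. With DMSO, 13 of the 25 were higher and 0 lower in PARP1 KO than in WT at an adjusted P below 0.05, beside 1.39% of all genes, none of them by more than 1.5-fold (edgeR; median 0.23). Between genotypes, the response of 20 of the 25 was lower and of 1 higher in PARP1 KO by the interaction with each drug at an adjusted P below 0.05, beside 22.9% of all genes for niraparib and 2.27% for olaparib.

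Of 14 transcription factors that act upstream of D-type cyclins and p27, JUN, a part of AP-1, rose by 0.82 and PGR, the progesterone receptor, fell by 0.88 with niraparib in WT, as the only called genes (median 0.12), and this share was near the 13.8% of all genes called. With olaparib in WT, PGR (-0.62) and MYC (-0.63) were called, beside 4.04% of all genes. In PARP1 KO, FOS, another part of AP-1, was the only called gene of this list, at 0.88 with niraparib (edgeR adjusted P = 8.2e-06, beside 0.0136% of all genes) and at 0.76 with olaparib (adjusted P = 2.2e-05, beside 0.803%). In WT it rose by 0.38 with niraparib, under 1.5-fold (edgeR adjusted P = 0.021), and its difference with olaparib was 0.32 (adjusted P = 0.079). ESR1, the estrogen receptor, fell in WT by 0.56 under niraparib (edgeR adjusted P = 2.2e-09) and by 0.45 under olaparib (adjusted P = 4.2e-07). In PARP1 KO it fell by 0.18 with olaparib (edgeR adjusted P = 0.045), and its difference with niraparib was -0.10 (adjusted P = 0.63). All 12 mitotic proliferation markers fell at an adjusted P below 0.05 with niraparib in WT and 10 of them were called, beside 38% and 13.8% of all genes (edgeR; median -1.44), led by PLK1 (-2.46), CCNB1 (-2.19) and BUB1 (-1.89). Their summed level was 4530 to 4930 CPM with DMSO in WT, 1970 to 2090 CPM with niraparib and 3940 to 3970 CPM with olaparib. In PARP1 KO it was 4450 to 4570 CPM with DMSO, 3900 to 4460 CPM with niraparib and 4250 to 4990 CPM with olaparib, so the niraparib range touched that of DMSO only at its upper end. With olaparib in WT 8 of the 12 fell and 0 rose at an adjusted P below 0.05, beside 19% of all genes, and CCNB1 and PLK1 were called, beside 4.04% (edgeR; median -0.36). In PARP1 KO 0 were called with either drug, beside 0.0136% of all genes with niraparib and 0.803% with olaparib. At an adjusted P below 0.05 there, none fell with niraparib and 1 with olaparib (edgeR), beside 0.109% and 8.29% of all genes. The part of these cell cycle differences in the values of the 10 genes was not tested.

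**Figure D5:**
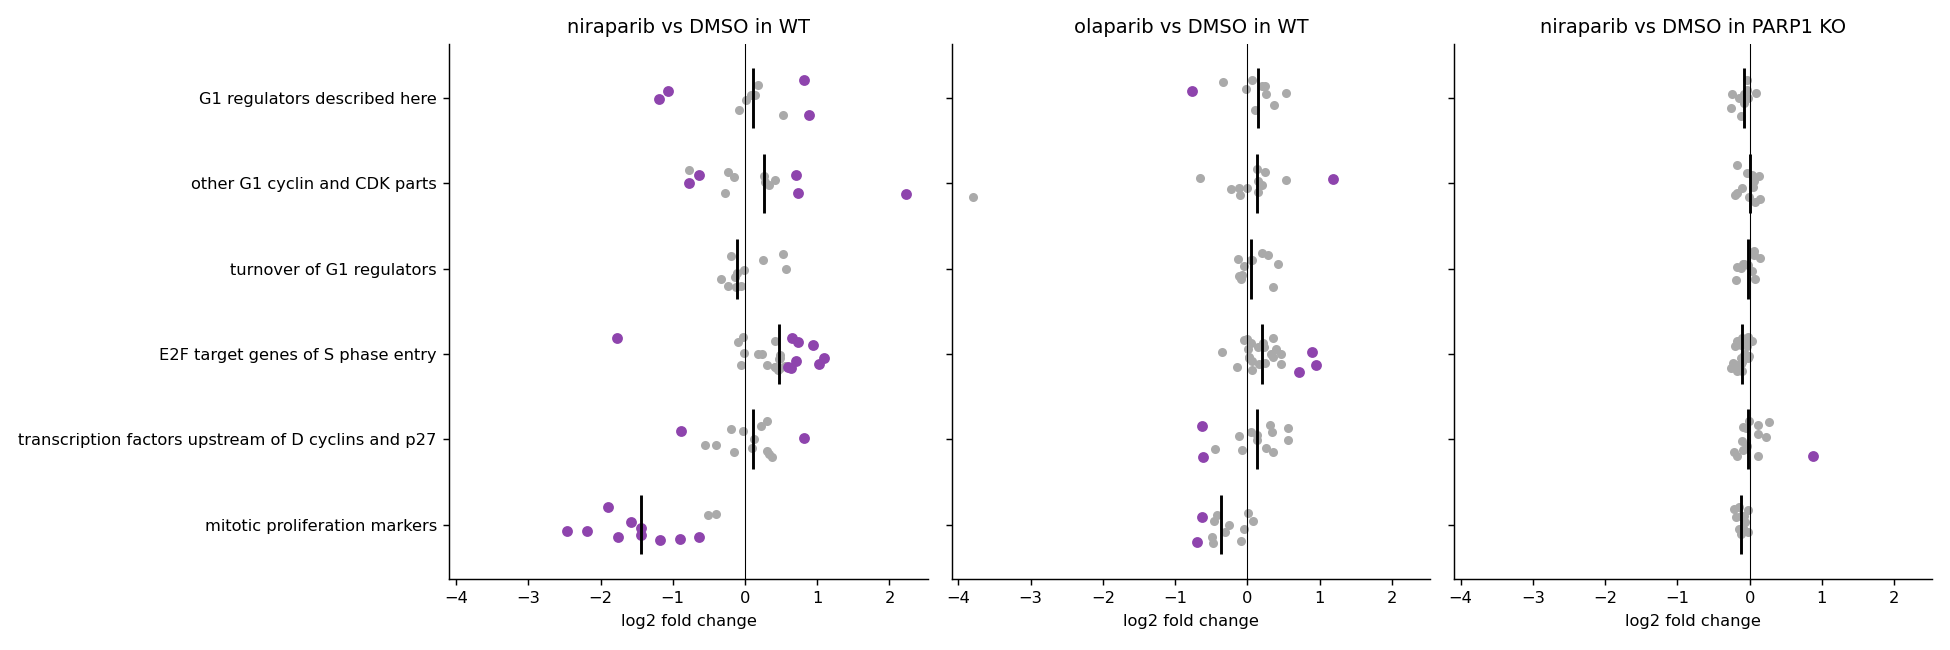
Log2 fold change of each gene (point) of the 10 regulators and of 5 lists in 3 comparisons; purple points were called, grey points were not, and black bars are list medians. With niraparib in WT the mitotic markers lay lowest (median -1.44) and the E2F targets had a median of 0.47, whereas with niraparib in PARP1 KO the medians were near 0; the grey point at -3.79 with olaparib in WT is CCND2, which had hardly any counts.

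Genes whose log2 CPM over the 18 libraries was most like that of each regulator were named among the 13526 that averaged 1 CPM or more. These correlations describe 18 libraries that form 6 groups by genotype and treatment and differ in depth, so differences between groups enter every r. For CCND1 they were CLPTM1L (Pearson r = 0.985), ESR1 (0.982) and PFKFB3 (0.978), so the estrogen receptor transcript ranked second among all genes. CDKN2C was most like HDGF (0.983), the mitotic gene CDCA8 (0.982) and RNF5 (0.977). CCNE1 was most like IPO9 (0.914), the replicative helicase gene MCM3 (0.912) and PREP (0.912), and CCNE2 like PLSCR1 (0.961), C9orf40 (0.961) and SLC20A1 (0.954). For CDK2, CKS1B, a small protein that binds CDKs, came first (0.955), followed by LIN7B (0.909) and PRR15L (0.89).

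Among the 3 most similar to CDKN1B were STX3 (0.984) and KLHL24 (0.984). For CCND3 the most similar genes were IRAK1 (0.966), ZNF629 (0.966) and CLTB (0.964), and for CDK4 they were TIGD2 (0.938), NXT1 (0.928) and MASTL (0.924). RB1 (GRSF1 0.862, NRAS 0.847, CLNS1A 0.841) and CDK6 (EMC1 0.846, SLC2A12 0.839, CCDC88A 0.77) had the lowest first-ranked correlations. None of the 10 regulators was among the 3 most similar genes of another.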

How the data were processed

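For every one of the 18 libraries, the authors deposited unnormalized read counts by gene. Per the study's methods and the file headers, reads were trimmed with Trimmomatic, mapped to GRCh38 with STAR, passed through Picard MarkDuplicates and counted on exons with featureCounts 2.0.0 (stranded, primary alignments) and the Ensembl 96 annotation; whether duplicates were removed is not clear from these sources. Exons of the 10 genes share no bases with another gene on the same strand.

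From the counts, genes with more than 10 counts in a fit were tested with edgeR 4.0.16 (TMM, quasi-likelihood F test, Benjamini-Hochberg adjustment over all genes tested), with 9 libraries of 1 genotype per drug fit and all 18 for genotype and interactions. The study's own tool, DESeq2 1.42.0, was an alternative, as were other size factors, other filters, other thresholds, a replicate block, 1 fit for all libraries and leaving out each library. Called genes had an adjusted P below 0.05 and differed more than 1.5-fold. CPM used TMM-scaled totals and TPM the exon lengths. The biological coefficient of variation was 7.04% for the WT fit and 7.42% for the PARP1 KO fit. Standard errors are the log2 fold change over the square root of F.

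The 10 genes and the lists were chosen with earlier results of these data known. From each list, up to 3 called genes per direction with the largest change for niraparib in WT were named, plus AMBRA1, CDT1, CKS1B, E2F1, ESR1, FBXO31, FOS, MCM2, MCM4, MYC, SKP2 and genes set beside the 10, chosen after their values were seen. One of the genes set beside CDKN1B is not reported here.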

Additional observations from a re-analysis of the deposited data

Results flagged for a closer look

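For 6 of the 10 genes the response to niraparib differed between the genotypes by the test of the difference itself (edgeR interaction, PARP1 KO minus WT, adjusted P below 0.05; 22.9% of all genes at this threshold). The log2 differences were 0.98 for CCND1, -0.43 for CCND3, -0.85 for CCNE1, -1.14 for CCNE2, -0.29 for CDK4 and 0.93 for CDKN2C. Their adjusted P values (edgeR) ran from 1.1e-12 for CCNE2 to 0.0044 for CCNE1. In each case the difference was opposite in sign to the response in WT. Since the WT response is subtracted, this sign follows wherever the response in PARP1 KO was smaller than that in WT or reversed.

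The response to olaparib differed at the same threshold for 3 genes (2.27% of all genes), at 0.37 for CCND1, -0.54 for CCNE2 and -0.25 for CDK2, all under 1.5-fold (adjusted P = 0.047, 2.1e-04 and 0.024, edgeR). Of these, CCNE2 kept an adjusted P below 0.05 in every other fit (highest 0.0015).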

How the results depend on the processing

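Of 1170 values of the 10 genes under other fits (9 comparisons, 10 genes), 1169 kept their direction, where either fit passed an adjusted P of 0.05, and their side of the call. The other was CCNE2 in the olaparib interaction, called at -0.59 without PARP1 KO DMSO replicate 2, so this count ran from 0 to 1 with single libraries left out. Among the 1169, the sign differed in 22 cases with neither fit past 0.05. Of 36 results with an adjusted P below 0.05, 6 lost it in some fit, and 5 others gained it; the cause was not tested. CCNE1 and CDK6 had the fewest counts of the 10 genes and the largest standard errors, and the part of depth in this was not tested.

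By threshold alone, counts of the 10 genes became 6 with olaparib in WT, 7 between drugs in WT, 2 with olaparib and 5 between drugs in PARP1 KO, 1 between genotypes and 3 in the olaparib interaction at an adjusted P below 0.05 alone, and 0 with niraparib, 0 with olaparib and 0 between drugs in WT and 0 in the niraparib interaction at an absolute log2 fold change above 1.5. Over all genes the first threshold gave 8530, 4270 and 7232 (niraparib, olaparib, between drugs in WT), 24, 1827 and 2203 (PARP1 KO), 344 (genotypes), 5661 and 559 (interactions), and the second 709, 153, 367, 0, 21, 24, 3, 457 and 30. Niraparib in PARP1 KO gave 24 genes with no filter, 8 with DESeq2 and 6 in 1 fit of all libraries. With no filter the genotypes gave 102 genes and the olaparib interaction 346. Single libraries left out moved counts over all genes to between 100 and 195 (olaparib in PARP1 KO), 144 and 281 (between drugs), 5 and 46 (genotypes, lowest without WT DMSO replicate 1) and 86 and 273 (olaparib interaction, highest without PARP1 KO olaparib replicate 1).

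Replicate numbers did not pair the libraries: correlations of their deviations ran from -0.54 to 0.552, and 4 of 18 correlated best with their own number. With the number as a block, niraparib in WT still called 4 of the 10 genes and 2920 genes. Without the length, the fall in the CCND1 share of D-type cyclins with niraparib was -14.8 percentage points instead of -13.1, and the rise of E-type per 100 D-type cyclins, an alternative added after seeing the data, was 16.7 instead of 21.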
